A study of Homo sapiens with 5 samples.

Results

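COPII is the protein coat that forms vesicles at exit sites of the endoplasmic reticulum (ER) and carries newly made secretory and membrane proteins towards the Golgi. The GTPase SAR1 (SAR1A or SAR1B) is loaded with GTP by PREB, also called SEC12, and inserts into the ER membrane. SAR1 recruits the inner coat, in which SEC23 activates GTP hydrolysis by SAR1 and SEC24 binds the sorting signals of cargo, and the SEC13-SEC31 cage then closes over it and bends the membrane. Vertebrates carry several SEC24 genes whose proteins differ in the cargo they bind, so the mix of paralogs bears on what leaves the ER. The 10 human genes of the coat were taken by symbol (SAR1A, SAR1B, SEC23A, SEC23B, SEC24A, SEC24B, SEC24C, SEC24D, SEC13 and SEC31A) from the 64252 genes of the deposited count table. All 10 were found, and all 10 were among the 15341 genes with enough counts to be tested.

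The libraries come from RPE-1, a human line derived from retinal pigment epithelium and immortalized, collected 48 hr after siRNA transfection. The 3 control libraries (siCtrl) received the ON-TARGET Control #1 siRNA and are labelled wild-type, and the 2 knock-down libraries (siFAM53C) received an ON-TARGETplus pool against FAM53C, a regulator of the G1/S transition; the labels give 5 µM for both. Each condition had an siRNA of another sequence, so loss of FAM53C and effects of the siRNA sequences themselves cannot be told apart. The labels do not say whether replicates came from separate cultures, so the p-values measure the spread between these libraries, which may be technical.

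The libraries held between 19260124 and 25615415 counts on genes. FAM53C, the targeted gene, was at 60.8, 59.7 and 57.5 CPM (counts scaled to library totals corrected by TMM factors) in siCtrl and at 14.2 and 22.3 CPM in siFAM53C. It fell by 1.71 on the log2 scale, with an SE of 0.19 and an adjusted p of 0.003625 (edgeR, quasi-likelihood F-test, Benjamini-Hochberg adjustment over all tested genes, used for every adjusted p given here). On the first principal component, which held 39.8% of the variance of log2 CPM, siCtrl replicate 3 and siFAM53C replicate 2 lay apart from siCtrl replicates 1 and 2, with siFAM53C replicate 1 between them. The library names give siCtrl replicate 3 and siFAM53C replicate 2 the same number, 3. For SEC24D, the other coat genes as a range, and the ratio of SEC24C to SEC24D, differences are also given within sides of this split (siFAM53C replicate 1 against siCtrl replicates 1 and 2, and siFAM53C replicate 2 against siCtrl replicate 3). On the component, siFAM53C replicate 1 (at 0.26) lay between the sides, and placing it with siCtrl replicates 1 and 2 was a choice taken from earlier results of these data. Of the 7 markers of retinal pigment epithelium looked at, only MITF and OTX2 reached 1 CPM in every library, and RPE65, the defining enzyme of the visual cycle, had 0 counts in each of them. Their summed level ran from 52.1 to 66.6 CPM in siCtrl and from 49.3 to 60.5 CPM in siFAM53C. Markers of blood, endothelium, liver and neural crest summed to at most 1.26 CPM in any library. Simple epithelial keratins summed to between 389.5 and 474.2 CPM in siCtrl and between 507.9 and 508.7 CPM in siFAM53C, without overlap. Of these keratins only KRT8 had both siFAM53C libraries above every siCtrl library, as 16.7% of all tested genes did. The highest KRT18 value (181.6 CPM) and the highest KRT7 value (10.56 CPM) were in siCtrl. The sum of the mesenchymal genes VIM, FN1 and CDH2 overlapped between conditions. The part of the keratin difference in the values that follow was not tested.

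SEC24D was the one coat gene whose mRNA fell in siFAM53C with all libraries and TMM scaling, whereas with library totals as the scaling none was called. The other 9 genes lay between -0.12 and 0.08 on the log2 scale, and within the sides of the split between -0.11 and 0.08 and between -0.20 and 0.15. Of the 10 genes, 1 was called lower, where 3.47% of all tested genes were, and 0 were called higher, where 0.489% were, at an adjusted p under 0.05. Without adjustment, a p under 0.05 again gave 1 lower and 0 higher, where 10.5% and 6.61% of all genes passed, and DESeq2 and limma-voom each gave 1 lower and 0 higher. Both siFAM53C libraries were below every siCtrl library for SEC24D alone, 1 of 10 genes, against 18.8% of all genes; no coat gene had both siFAM53C libraries above every siCtrl library, against 16.7% of all genes. The median log2 fold change of the 10 genes was -0.021, beside 0.016 for all tested genes, and it was above 0 in 5 of 15 alternative fits. With 1 gene of 10 called, the count is too small to set the list apart from this background.

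**Figure D1:**
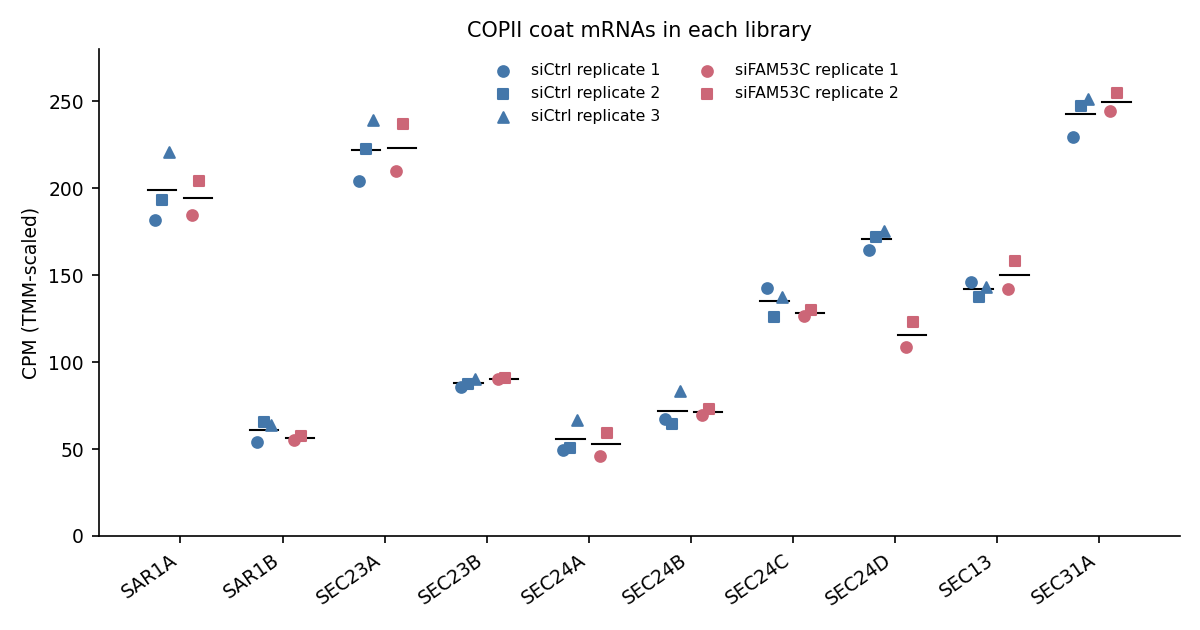
CPM of the 10 COPII coat genes (x axis) in each of the 5 libraries, with blue symbols for siCtrl, red symbols for siFAM53C, the symbol shape for the replicate number and black bars for the group means. The siFAM53C symbols lie among or next to the siCtrl symbols for 9 genes, and for SEC24D they lie at 108.7 and 122.9 CPM, under the lowest siCtrl value of 164.7 CPM.

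The SEC24 genes were examined next, since they select the cargo. SEC24D (ENSG00000150961) lies on the minus strand of chromosome 4 of GRCh38, from 118722823 to 118838683, and none of its exon bases are shared with a gene on the opposite strand. Variants of it are known from a brittle bone disorder of the osteogenesis imperfecta group. The siCtrl libraries held 3884, 3288 and 3351 reads of it and the siFAM53C libraries 2880 and 2900. Scaled, SEC24D was at 164.7, 171.9 and 175.4 CPM in siCtrl and at 108.7 and 122.9 CPM in siFAM53C. The conditions did not overlap, and the gap between the means, 170.7 ± 5.43 (SD, n = 3) and 115.8 ± 10.0 (SD, n = 2) CPM, was larger than the spread within either. SEC24D fell by 0.56 on the log2 scale (SE 0.11, 95% interval from -0.81 to -0.31, edgeR adjusted p = 0.03056). It was a change of -32.1% (interval from -42.8 to -19.4%). The log2 differences within the sides of the library split were -0.63 and -0.51. In RNA from a whole culture, fewer cells with the transcript and less of it per cell cannot be told apart.

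The direction held in each of 15 alternative fits, from -0.65 to -0.48, and SEC24D was called in 10 of them. It was not called with library totals as the only scaling (edgeR adjusted p = 0.05169), nor without siCtrl replicate 1 (-0.58), siCtrl replicate 2 (-0.55), siFAM53C replicate 1 (-0.48) or siFAM53C replicate 2 (-0.65), where the adjusted p ranged up to 0.2776 from the same test.

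The paralogs of SEC24D did not pass the threshold. SEC24C (ENSG00000176986, chromosome 10, 73744372 to 73772161, plus strand), the closest relative of SEC24D, was at 142.6, 126.1 and 137.3 CPM in siCtrl and at 126.3 and 129.8 CPM in siFAM53C. The conditions overlapped, and its log2 fold change was -0.079 (95% interval from -0.32 to 0.16). Of its 5353 exon bases, 2293 are shared with an uncharacterized transcript on the opposite strand, ENSG00000279689, which had at most 17 counts in a library. SEC24A (ENSG00000113615, chromosome 5, 134648785 to 134727909, plus strand), a cargo-binding paralog, was at 49.2, 50.8 and 66.6 CPM in siCtrl and at 46.2 and 59.3 CPM in siFAM53C. Both of its higher values belong to libraries on the same side of the split, siCtrl replicate 3 and siFAM53C replicate 2. Its log2 fold change of -0.074 had the widest interval of the coat genes, from -0.48 to 0.33. SEC24B (ENSG00000138802, chromosome 4, 109433772 to 109540896, plus strand), which carries the planar polarity protein VANGL2, was at 67.3, 64.6 and 83.7 CPM in siCtrl and at 69.7 and 73.0 CPM in siFAM53C, and siCtrl replicate 3 was again the highest library. The log2 fold change of SEC24B was -0.0094 (95% interval from -0.33 to 0.31).

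**Figure D2:**
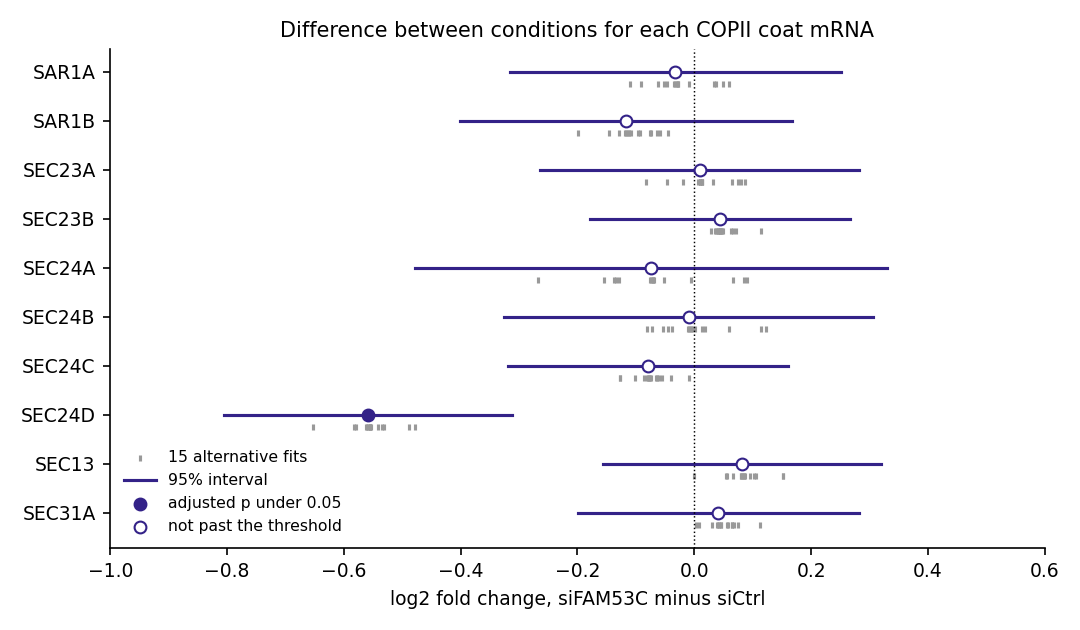
Log2 fold change of each COPII coat gene (siFAM53C minus siCtrl, x axis) with its 95% interval; filled circles passed an adjusted p of 0.05 in edgeR's test, and grey ticks under each line are the 15 alternative fits. SEC24D is the filled circle at -0.56, with all its ticks between -0.65 and -0.48, and the other 9 intervals cross 0. SEC24D was not called with library totals as the scaling, nor in most fits that left out a library.

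Because libraries share their scaling across genes, ratios of 2 coat genes within a library were compared too, for 5 pairs. The log2 ratio of SEC24C to SEC24D counts was -0.21, -0.45 and -0.35 in siCtrl, and it was 0.22 and 0.079 in siFAM53C. SEC24D thus had more counts than SEC24C in every siCtrl library and fewer in both siFAM53C libraries. The ratio rests on the same SEC24D counts as the call above and is not a separate result. The difference was 0.48, with 0.54 and 0.43 within the sides of the split (two-sided exact permutation test over the 10 assignments of libraries, p = 0.2, the smallest this design allows; adjusted over the 5 pairs, p = 0.8). For the other 4 pairs the conditions overlapped. The differences were -0.035 for SEC23A to SEC23B, 0.083 for SAR1A to SAR1B, -0.071 for SEC24A to SEC24B and 0.038 for SEC13 to SEC31A, with exact permutation p from 0.6 to 0.8.

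The share of SEC24D in its family was lower in siFAM53C. It rests on the same SEC24D counts, so it restates the difference above and is not a second result. With CPM divided by the length of the Ensembl canonical transcript, SEC24D made up 43.6, 46.6 and 43.0% of the SEC24 family in siCtrl, but 35.4 and 36.7% in siFAM53C. With CPM divided by all annotated exon bases of the gene, the shares were 26.4, 28.8 and 25.8% and then 20.2 and 21.1%. The conditions did not overlap on either scale, although the level of the share depended on the length used, since the 9920 exon bases of SEC24D include many outside its canonical transcript of 4018 bases. The canonical length was chosen after the exon lengths had been seen. The summed CPM of the 4 SEC24 genes was 433 ± 26.1 in siCtrl (SD over 3 libraries) and 368 ± 24.2 in siFAM53C (SD over 2), while that of SEC23A and SEC23B was 310 ± 19.7 and 314 ± 19.5 and that of SAR1A and SAR1B was 260 ± 24.6 and 251 ± 15.4 CPM.

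**Figure D3:**
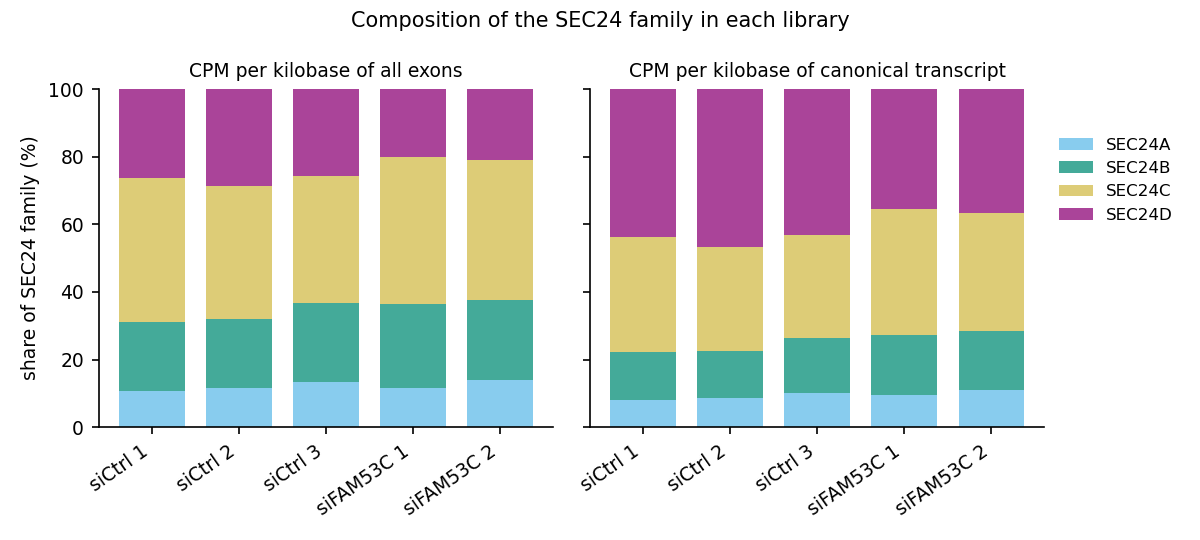
Share of each SEC24 gene in the family (y axis, percent) in each library, from CPM per kilobase of all exons on the left and per kilobase of the canonical transcript on the right. The SEC24D segment at the top is 25.8 to 28.8% in siCtrl and 20.2 to 21.1% in siFAM53C on the left, and 43.0 to 46.6% and 35.4 to 36.7% on the right.

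The partners of SEC24 in the inner coat did not pass the threshold. SEC23A (ENSG00000100934, chromosome 14, 39031919 to 39109646, minus strand), variants of which are known from cranio-lenticulo-sutural dysplasia, was at 204.3, 222.7 and 239.4 CPM in siCtrl and at 210.1 and 236.8 CPM in siFAM53C. Both siFAM53C values lay inside the siCtrl range, and the log2 fold change was 0.0089 (95% interval from -0.26 to 0.28). SEC23B (ENSG00000101310, chromosome 20, 18507520 to 18561415, plus strand), mutated in a congenital dyserythropoietic anemia, was the tightest of the coat genes, at 85.8, 87.4 and 90.1 CPM in siCtrl and 90.0 and 90.9 CPM in siFAM53C. SEC23B differed by 0.044 on the log2 scale (95% interval from -0.18 to 0.27).

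Neither the GTPases nor the outer coat passed it. SAR1A (ENSG00000079332, chromosome 10, 70147289 to 70170523, minus strand) was at 182.0, 193.5 and 221.1 CPM in siCtrl and at 184.5 and 204.3 CPM in siFAM53C, a log2 fold change of -0.032 (95% interval from -0.31 to 0.25). SAR1B (ENSG00000152700, chromosome 5, 134601149 to 134649271, minus strand), which is mutated in chylomicron retention disease, was at 54.0, 65.6 and 64.1 CPM in siCtrl and at 55.4 and 57.4 CPM in siFAM53C. Its conditions overlapped only through siCtrl replicate 1, and the log2 fold change was -0.12 (95% interval from -0.40 to 0.17). SAR1B and SEC24A overlap head to head on opposite strands and share 389 exon bases, so reads there may be assigned to either gene or to neither. SEC13 (ENSG00000157020, chromosome 3, 10293131 to 10321112, minus strand), which is also a subunit of the nuclear pore, was at 145.9, 137.2 and 143.2 CPM in siCtrl and at 142.3 and 158.4 CPM in siFAM53C. SEC13 had the highest log2 fold change of the coat, 0.082 (95% interval from -0.16 to 0.32). SEC31A (ENSG00000138674, chromosome 4, 82818509 to 82901166, minus strand), its partner in the cage, was at 229.3, 247.6 and 251.2 CPM in siCtrl and at 244.5 and 254.8 CPM in siFAM53C, with a log2 fold change of 0.041 (95% interval from -0.20 to 0.28). Coat genes had from 971 to 6475 counts in a library, for which counting alone gives an error of 3.21% down to 1.24%. SEC23A, SEC24B, SEC13 and SEC31A each overlap an opposite-strand gene over at most 324 exon bases. SAR1A, SEC23A, SEC24A, SEC24B and SEC13 each changed sign in at least 1 alternative fit, so no direction is given for them.

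The levels of the coat genes differed among themselves. In siCtrl, in CPM per kilobase of canonical transcript, SEC13 was highest at 104.6 ± 3.28 (SD, n = 3). SEC23A (57.8 ± 4.58) and SEC31A (56.5 ± 2.73) came next and overlapped between libraries. SEC24D followed at 42.5 ± 1.35, apart from both of its neighbours. SAR1A (33.7 ± 3.41), SEC24C (30.4 ± 1.90) and SEC23B (29.0 ± 0.705) formed a run in which each overlapped the next. SEC24B was at 14.1 ± 2.03, and the lowest genes, SAR1B (9.39 ± 0.969) and SEC24A (8.69 ± 1.5), overlapped. In siFAM53C, SEC24D was at 28.8 ± 2.50 (SD, n = 2) on this scale, next to SEC24C at 28.8 ± 0.571. In CPM per kilobase of all exons the order changed: SAR1A was highest at 28.8 ± 2.91 (SD, n = 3), SEC24D was at rank 7 of 10 with 17.2 ± 0.547 and SAR1B was lowest at 5.67 ± 0.585. SEC24A and SAR1B were the lowest of the coat on both scales.

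The coding sequences of the paralogs were compared to see whether reads could be mixed up between them. SAR1A and SAR1B were identical at 77.7% of aligned coding bases, SEC23A and SEC23B at 75.5%, SEC24A and SEC24B at 68.2% and SEC24C and SEC24D at 66.5%. The longest stretch of identical bases in these alignments was 23 bases, for SEC23A and SEC23B. SEC31B, a paralog of SEC31A outside the 10 genes, had 205, 164 and 353 counts in siCtrl and 500 and 645 in siFAM53C, or 8.70, 8.58, 18.5, 18.9 and 27.3 CPM. Both siFAM53C values were above every siCtrl value, but siCtrl replicate 3 was close to siFAM53C replicate 1. The log2 fold change of SEC31B was 0.96 (SE 0.37, edgeR adjusted p = 0.2521), not past the threshold. It passed in 5 of 15 alternatives. Without siCtrl replicate 3 it was 1.43 (edgeR adjusted p = 0.00291), and it also passed with a block by titles (1.39), a block by library names (0.83), a term for the split (0.88) and no filter on low counts (0.96).

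The promoters of the coat genes were searched for TGACGTG, the core of an element bound by ATF6 and XBP1, on both strands. RefSeq windows of 300 bases around gene starts (GRCh38.p14) were held for 9 of the 10 genes, SEC24D being the exception. The motif was found in 3 of these 9 genes, SEC23A, SEC24A and SEC13, and in 2.40% of 27305 gene symbols. None of the 3 passed the test between conditions, with log2 fold changes of 0.0089, -0.074 and 0.082. The shorter CCACG, the core of the ER stress response element, was in 9 of 9 genes and in 42.1% of symbols, and in SEC24A and SEC23A it overlaps the longer motif on the other strand. The 9 genes had 14 windows and the 27305 symbols 35116. The symbols were not limited to tested genes or matched for base composition, so the shares are not a like comparison. The 47 bases around each TGACGTG are shown in the direction of the gene, the motif or its reverse complement in capitals: SEC23A at chr14:39103213-39103259 (minus strand), SEC24A at chr5:134648586-134648632 (plus strand) and SEC13 at chr3:10321229-10321275 (minus strand).
SEC23A: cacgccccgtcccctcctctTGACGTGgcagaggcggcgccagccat
SEC24A: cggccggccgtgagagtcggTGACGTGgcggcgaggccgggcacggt
SEC13: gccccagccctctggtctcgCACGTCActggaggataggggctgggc
The motif begins 4 bases before the start in SEC23A, 179 bases before it in SEC24A, and 143 or 214 bases before the annotated starts of SEC13.

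The rest of the early secretory pathway was read from 5 lists, chosen from knowledge of the pathway with earlier results of these data known. Of their 69 genes, 62 had enough counts to be tested. In edgeR's test 4 were lower (SEC23IP, ERGIC2, BET1 and ATF6) and 1 was higher (COL1A1). That is 6.45% lower and 1.61% higher, beside 3.47% and 0.489% of all tested genes. Before adjustment, at a p under 0.05, 12 were lower and 4 higher, or 19.4% and 6.45%, beside 10.5% and 6.61% of all genes. No list held more than 1 called gene.

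Among 12 tested organizers of ER exit sites and regulators of the coat, SEC23IP was lower and 0 were higher (before adjustment, 3 lower and 1 higher), and the median was -0.014. SEC23IP (ENSG00000107651, chromosome 10, 119892707 to 119944657, plus strand) encodes p125A, which binds SEC23 and links the inner and outer coat. It was at 144.7, 165.0 and 164.6 CPM in siCtrl and at 73.9 and 70.1 CPM in siFAM53C, far apart. SEC23IP had a log2 fold change of -1.13 (SE 0.11, edgeR adjusted p = 0.002029), and it was called in 15 of 15 alternative fits. PREB, the exchange factor for SAR1, was at 65.3, 62.3 and 47.1 CPM in siCtrl and at 46.2 and 40.3 CPM in siFAM53C. Its log2 fold change of -0.43 was not past the threshold (adjusted p = 0.2333 from the same test), and without siCtrl replicate 3 it was -0.55 and was called, as it was in 4 of 15 alternatives. PDCD6, a calcium-binding regulator of SEC31A, had -0.38 (edgeR adjusted p = 0.1795) and was called in 2 of 15 alternatives, the block by library names and the split term.

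Among 12 tested cargo receptors, ERGIC2 was lower and 0 were higher (before adjustment, 4 lower and 0 higher). In this list 11 of 12 genes were below 0, with a median of -0.15, where 48.2% of all tested genes were below 0. Of the 11, 4 (LMAN1, ERGIC3, CNIH4 and BCAP31, named after their values were seen) lay above 0 in at least 1 alternative. ERGIC2 (ENSG00000087502, chromosome 12, 29337352 to 29381189, minus strand), a membrane protein that cycles between the ER and the Golgi, was at 119.5, 131.6 and 125.2 CPM in siCtrl and at 76.6 and 74.3 CPM in siFAM53C. ERGIC2 had a log2 fold change of -0.73 (SE 0.10, edgeR adjusted p = 0.008649), called in 12 of 15 alternatives and lost without siCtrl replicate 2 (-0.70), siFAM53C replicate 1 (-0.76) or siFAM53C replicate 2 (-0.71). Of its 5826 exon bases, 314 are shared with FAR2 on the opposite strand. MCFD2, which with LMAN1 carries coagulation factors V and VIII, had -0.58 (edgeR adjusted p = 0.05245), just outside the threshold and inside it in 8 of 15 alternatives. LMAN2L had -0.36 (adjusted p = 0.2038 from the same test).

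Among 24 tested SNAREs and tethers of the ER-Golgi step, BET1 was lower and 0 were higher (before adjustment, 2 lower and 1 higher), with a median of -0.013. BET1 (ENSG00000105829, chromosome 7, 93962762 to 94004382, minus strand) is a SNARE of ER-derived vesicles. It was at 21.7, 19.7 and 17.7 CPM in siCtrl and at 5.97 and 6.87 CPM in siFAM53C. Its log2 fold change of -1.62 (SE 0.18, edgeR adjusted p = 0.003504) was the most negative of the 5 lists, and it was called in 15 of 15 alternative fits. SCFD1, the Sec1-family partner of these SNAREs, had -0.54 (edgeR adjusted p = 0.1573) and was called in 5 of 15 alternatives, both blocks and the split term among them. GORASP1, a Golgi stacking protein, had 0.28 (adjusted p = 0.2607 from the same test).

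Transcription factors of the ER stress and CREB3 pathway, which are known to act on coat genes, were read with the proteases that release them from the membrane. Of 7 tested, ATF6 was lower and 0 were higher (before adjustment, 3 lower and 1 higher). ATF6 (ENSG00000118217, chromosome 1, 161766298 to 161977574, plus strand) was at 95.4, 106.0 and 112.8 CPM in siCtrl and at 63.5 and 68.1 CPM in siFAM53C. ATF6 fell by 0.67 on the log2 scale (SE 0.11, edgeR adjusted p = 0.0213), called in 11 of 15 alternatives and lost without siCtrl replicate 1 (-0.73), siCtrl replicate 2 (-0.66), siFAM53C replicate 1 (-0.63) or siFAM53C replicate 2 (-0.72). MBTPS1, the site-1 protease that cleaves ATF6, was at 159.5, 157.4 and 157.2 CPM in siCtrl and at 126.1 and 127.5 CPM in siFAM53C, with -0.32 (edgeR adjusted p = 0.1361), and was called in 2 of 15 alternatives, the block by library names and the split term. CREB3L4 had 0.76 at a low level, from 3.10 to 5.97 CPM (adjusted p = 0.1862 from the same test). XBP1 is listed at 0 in every library and ATF6B at no more than 3 counts, so neither was tested. XBP1 is broadly expressed, and whether the counting lost its reads was not tested, so the listed 0 is not read as absence of the transcript.

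Procollagens are cargo too large for an ordinary COPII vesicle. Of 11 listed, 7 were tested, while COL1A2, COL3A1, COL5A1 and COL6A2 had too few counts. Of the 7, 1 was higher and 0 were lower (the same counts before adjustment), with a median of 0.26. The gene at the median, COL6A3, ran from -0.092 to 0.55 over the alternatives. It was at 14.8, 13.1 and 23.0 CPM in siCtrl and at 15.9 and 24.8 CPM in siFAM53C. Its higher values belong to siCtrl replicate 3 and siFAM53C replicate 2, on the same side of the split. The part of the split in the median was not tested. COL1A1 (ENSG00000108821, chromosome 17, 50184101 to 50201632, minus strand) was at 18.3, 15.8 and 18.6 CPM in siCtrl and at 29.2 and 29.4 CPM in siFAM53C, and rose by 0.74 on the log2 scale (SE 0.14, edgeR adjusted p = 0.03098). This call was also lost without siCtrl replicate 1 (0.77), siCtrl replicate 2 (0.67), siFAM53C replicate 1 (0.74) or siFAM53C replicate 2 (0.73). COL4A2 (0.39) and COL6A1 (0.37) were not past the threshold (edgeR adjusted p = 0.486 and 0.6496).

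**Figure D4:**
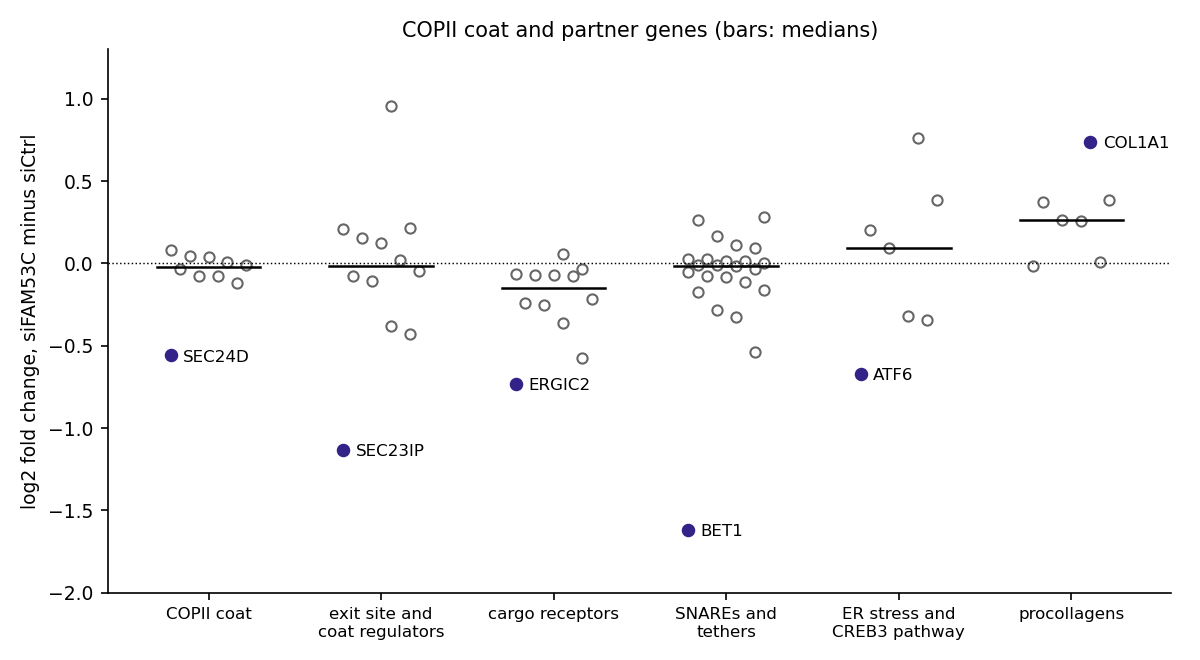
Log2 fold change (siFAM53C minus siCtrl, y axis) of each tested gene of the COPII coat and of the 5 partner lists (x axis), with filled, named points for an adjusted p under 0.05 in edgeR's test and bars for medians. SEC24D (-0.56, not called with library totals as the scaling), SEC23IP (-1.13), ERGIC2 (-0.73), BET1 (-1.62) and ATF6 (-0.67) lie under their lists. COL1A1 (0.74) lies above its list. The calls of SEC24D, ERGIC2, ATF6 and COL1A1 were lost in some fits that left out a library.

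The heptamer GACAAGA was known from earlier results of these data to mark lower genes. It occurs in the longest annotated 3′ UTR of 1400 of 12096 tested genes (11.6%). Of these, 15.1% were called lower and their median log2 fold change was -0.18, against 2.92% and 0.02 for the others. Since the heptamer was taken from these same data, the shares describe them and are not independent support. Of the coat genes, 1 of 10 holds it, SEC24A, whose log2 fold change was -0.074. SEC24D does not hold it, and neither do BET1 and COL1A1. SEC23IP holds it at 2 sites and ERGIC2 and ATF6 at 1 each. Their 3′ UTRs were long (4092, 3804 and 5416 bases), and those of SEC24D, BET1 and COL1A1 shorter (692, 985 and 1401 bases). SAR1A and SAR1B, with 5187 and 5801 bases, do not hold it. The part of 3′ UTR length was not tested. The sites follow as 29 bases of the transcript strand in GRCh38 with the heptamer in capitals, shown for the 1 coat gene and the 3 called partner genes that hold it. Over the lists it is in 11 of 62 tested genes, 3 called and 8 not called. The positions are SEC24A at chr5:134727744-134727772 (plus strand), SEC23IP at chr10:119941455-119941483 and chr10:119942756-119942784 (plus strand), ERGIC2 at chr12:29340590-29340618 (minus strand) and ATF6 at chr1:161960705-161960733 (plus strand).
SEC24A: gaaaagttggaGACAAGAtttgtcttcct
SEC23IP site 1: ggctacttcatGACAAGActgctttgtaa
SEC23IP site 2: acgtgctgtatGACAAGAggaacctgctt
ERGIC2: taagccatattGACAAGAccagttatcca
ATF6: ggtgattttcaGACAAGAaccattttctc
A match is a description of the letters and not a site of action, and its part in these differences was not tested.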

How the data were processed

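Per the labels, total RNA of 3 siCtrl and 2 siFAM53C samples of RPE-1 was sequenced; the study's methods speak of duplicates, and all 3 labelled controls were used. The deposited table holds raw read counts per Ensembl gene. The authors used CutAdapt (2.10) for trimming, HISAT2 for alignment (reverse strand, hg38) and featureCounts; the annotation release and the strand setting of the counting are not given in the sources used here. Positions and symbols come from GENCODE release 44 (GRCh38) and promoter windows, 250 bases before to 50 after a start, from RefSeq.

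Genes were kept by filterByExpr (counts of 10, total of 15) and scaled by TMM. Condition was the only term of a robust quasi-likelihood fit (edgeR 4.0.16 under R 4.3.3), adjusted by Benjamini-Hochberg over 15341 genes at a threshold of 0.05, with 95% intervals. DESeq2 (1.42.0), which the study names, and limma-voom (3.58.1) were alternatives. The fits were tested on simulated data. Within a condition, libraries differed beyond sampling noise. Each was counted as 1 replicate, although such a spread does not show that they came from separate cultures. Coat genes, lists, motifs and the library split were chosen with earlier results of these data known. Named genes were FAM53C, the coat genes, SEC31B and, in each list, the genes past the threshold, filled up to 3 by smallest p. Depth was 19260124 to 25615415 counts per library.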

Additional observations from a re-analysis of the deposited data

How the results depend on the processing

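Alternatives were DESeq2, limma-voom, library totals, RLE factors, 2 other filters, 2 replicate blocks, a term for the library split and each library left out; a fit without robust estimation and within-split values of the coat genes were added after seeing the data. FAM53C was called in all 15 alternative fits (-2.07 to -1.42). The number of coat genes called lower was 1, and 0 with library totals (SEC24D -0.49) and in 4 of the 5 fits that left out a library (range 0 to 1; SEC24D -0.65 to -0.48). The median of the coat genes ran from -0.092 to 0.073, above 0 in 5 of 15 alternatives. The ratio of SEC24C to SEC24D ran from 0.42 to 0.55 and that of SAR1A to SAR1B from 0.013 to 0.13, while those of SEC23A to SEC23B (-0.11 to 0.045), SEC24A to SEC24B (-0.22 to 0.076) and SEC13 to SEC31A (-0.029 to 0.12) changed sign.

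The partner lists had 4 genes lower and 1 higher, against 6 and 2 with no filter, 7 and 2 when titles set the replicate block, 10 and 2 when library names set the replicate block, also 10 and 2 if the split was a term, and 2 to 7 lower and 0 to 2 higher with a library left out. The labels do not say whether libraries of the same number were paired, and the main fit held no such term. Deviations of same-numbered libraries correlated at 0.17 and -0.28 by titles and at 0.17 and 0.37 by library names. The value of 0.37 belongs to siCtrl replicate 3 and siFAM53C replicate 2, which also lay on the same side of the library split. With either block SEC24D was called (-0.54 and -0.56) and no other coat gene was.

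Signs reversed, never past the threshold, with library totals for SAR1A (0.038) and SEC24B (0.060), with the block by titles for SAR1A (0.050), SEC24A (0.066) and SEC24B (0.11), with the split term for SEC23A (-0.020), and with limma-voom (0.00070) and the stricter filter of at least 5 CPM in 2 libraries (0.013) for SEC24B. With a library left out, values ranged from -0.11 to 0.059 for SAR1A, -0.083 to 0.088 for SEC23A, -0.27 to 0.091 for SEC24A, -0.081 to 0.12 for SEC24B, -0.00073 to 0.15 for SEC13 and -0.020 to 0.70 for COL4A2. The causes were not tested. With 2 siFAM53C libraries, a difference under about the width of the intervals given could not be shown.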
